A study of Mus musculus with 24 samples.

Results

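Monocytes move between bone marrow, blood and spleen under the control of G protein-coupled receptors that sense chemokines, sphingosine-1-phosphate and chemerin. The expression of 9 genes for such receptors, Ccr1, Ccr2, Ccr7, Cxcr2, Cxcr4, Cx3cr1, S1pr5, Ccrl2 and Cmklr1, was examined in monocytes of the mouse spleen. They were chosen by name, and all 9 were found among the 23930 amplicons of the expression table. The table covers 24 libraries in 6 groups of 4, which are Ly6C hi and Ly6C low monocytes from wild-type (WT), Slc29a3-/- and Slc29a3-/- Tlr7-/- mice. None of the mice was treated.

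Slc29a3 encodes a lysosomal nucleoside transporter and Tlr7 encodes an endosomal sensor of single-stranded RNA. The mice were on the C57BL/6 background. Both genes were disrupted by genome editing in all cells of the animal, with a stop codon placed in Slc29a3 and a short deletion in Tlr7. The age and sex of the mice whose cells were sequenced, and whether a library came from 1 mouse or from a pool, are not given in the sources used here. Cells of other lineages were first depleted on beads. What remained was gated as CD11b+, NK1.1- and Ly6G-, and sorted as Ly6C high with low FcgammaRIV or as Ly6C low with high FcgammaRIV. GEO's labels add that the cells were SiglecF-, and call them macrophages, whereas the study calls them monocytes. None of the 9 receptors was part of the sort. Libraries were made with a panel that amplifies 1 short stretch (an amplicon) of each gene by PCR, and values are reads per 1000000 reads of the library (RPM). Levels were therefore compared across libraries, gene by gene, apart from 1 ratio within libraries given as a description.

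Several features of the libraries bear on the receptors. The depth, worked out from the even step between the lowest values, was 12311128 to 14572061 reads per library, at which 3 reads correspond to 0.206 to 0.244 RPM. Fcgr4, the gene of the sorted marker FcgammaRIV, was at 605 to 3017 RPM in every Ly6C low library and at 26 to 62.5 RPM in every Ly6C hi library. The amplicons of Slc29a3 and Tlr7 were still read in the mutants (Slc29a3 at 127 to 413 RPM in the mutant Ly6C hi libraries and at 163 to 225 RPM in WT; Tlr7 at 355 to 627 RPM in the Slc29a3-/- Tlr7-/- Ly6C low libraries and at 298 to 479 RPM in WT), so they did not check the genotype labels. WT replicates 1 to 3 of both subsets, with barcodes 11 to 16, stood apart from WT replicate 4 and from the mutants. The 12 immediate early genes, which respond within minutes to handling and stimulation, summed to 10229 to 15276 RPM in these 6 libraries and to 657 to 3459 RPM in the 18 others. The same 6 libraries had Xist and no Ddx3y above 10 RPM, as in female cells, whereas WT replicate 4 of both subsets had Ddx3y only, as in male cells, and 3 of the 24 libraries had both. Ddx3y was above 10 RPM in 2 of the 8 Slc29a3-/- and 6 of the 8 Slc29a3-/- Tlr7-/- libraries, so the sexes were also unevenly spread between the mutants, and their part in the differences between the mutants was not tested. Xist without Ddx3y was seen in 14 of the 24 libraries, so not only in WT replicates 1 to 3. These replicates differed from the mutants in both barcode and genotype, and from WT replicate 4 in both barcode and sex. Each call of the 9 receptors that rests on WT is therefore also given with WT replicate 4 standing alone for WT. The same is given for calls against WT of the genes named from 3 further lists (other receptors, ligands, and genes that switch receptors off), but not for cell type markers. The spread of WT replicate 4 was then taken to be that of the other groups. It brings a mismatch in sex of its own, since Ddx3y was above 10 RPM in 2 of the 8 Slc29a3-/- libraries.

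Ccr2 and Cx3cr1 are the classical pair that separates monocyte subsets. Ccr2 answers CCL2 and CCL7 and brings Ly6C hi monocytes out of the bone marrow and into inflamed tissue, whereas Cx3cr1 binds fractalkine and sustains the survival and the vessel patrolling of Ly6C low monocytes. S1pr5, a receptor of sphingosine-1-phosphate, is needed for Ly6C low monocytes to leave the marrow, and Cxcr4, the receptor of CXCL12, holds cells in marrow and spleen. Ccr1 binds CCL3 and CCL5, Ccr7 guides cells to lymphoid tissue through CCL19 and CCL21, and Cxcr2 answers CXCL1 and CXCL2 and is best known in neutrophils. Cmklr1 signals the attractant chemerin, and Ccrl2 binds chemerin and presents it without signalling itself.

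The receptors were spread over 4 chromosomes (positions from GENCODE M21 on mm10). On chromosome 9 lie S1pr5 (21242912 to 21248443), Ccrl2 (111054486 to 111057519), Cx3cr1 (119901616 to 120069879), Ccr1 (123962124 to 123968692) and Ccr2 (124101950 to 124113557), the last as part of a cluster of chemokine receptor genes. Cxcr2 (74153989 to 74161246) and Cxcr4 (128588199 to 128592293) lie on chromosome 1, Cmklr1 (113612354 to 113650426) on chromosome 5, and Ccr7 (99144196 to 99155077) on chromosome 11. Ccr2 and Cxcr2 lie on the plus strand and the others on the minus strand.

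The 250 bases before the start of 4 receptors are shown as examples. Ccr1 was higher in Ly6C hi monocytes in every genotype, S1pr5 and Cxcr4 were lower there in every genotype, and Cmklr1 differed between genotypes in both subsets. Ccr2 and Cxcr2, which were also higher in Ly6C hi monocytes in every genotype, are not shown. The sequences are from RefSeq on GRCm38.p6, written 5′ to 3′ on the strand of the gene. Capitals mark CACCC or its reverse complement GGGTG, a box read by KLF factors, and GAGGAA or its reverse complement TTCCTC, a core read by PU.1 and other ETS factors. The Ccr1 window is chr9:123968693-123968942, the S1pr5 window chr9:21248444-21248693, the Cxcr4 window chr1:128592300-128592549 and the Cmklr1 window, which lies inside the gene as GENCODE draws it, chr5:113643604-113643853, all on the minus strand.
Ccr1: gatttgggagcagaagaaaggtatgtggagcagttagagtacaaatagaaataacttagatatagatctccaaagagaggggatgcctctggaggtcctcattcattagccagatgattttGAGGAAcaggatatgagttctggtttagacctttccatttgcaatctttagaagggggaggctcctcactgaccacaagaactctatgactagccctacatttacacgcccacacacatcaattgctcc
S1pr5: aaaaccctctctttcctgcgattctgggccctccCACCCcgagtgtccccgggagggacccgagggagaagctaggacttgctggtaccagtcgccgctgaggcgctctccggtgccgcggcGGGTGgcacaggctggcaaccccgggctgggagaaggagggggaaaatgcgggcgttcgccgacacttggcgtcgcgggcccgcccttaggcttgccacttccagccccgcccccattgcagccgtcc
Cxcr4: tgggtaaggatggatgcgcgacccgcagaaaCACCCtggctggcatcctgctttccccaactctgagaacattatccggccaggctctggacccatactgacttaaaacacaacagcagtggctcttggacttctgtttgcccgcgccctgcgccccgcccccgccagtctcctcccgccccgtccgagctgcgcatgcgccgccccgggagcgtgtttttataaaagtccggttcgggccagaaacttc
Cmklr1: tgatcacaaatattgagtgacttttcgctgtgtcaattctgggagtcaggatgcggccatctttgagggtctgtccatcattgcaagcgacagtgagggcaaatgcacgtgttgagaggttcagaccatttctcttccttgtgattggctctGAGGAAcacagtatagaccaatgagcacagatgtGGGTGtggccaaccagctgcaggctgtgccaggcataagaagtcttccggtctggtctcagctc
The Ccr1 window held 1 GAGGAA and no CACCC on either strand. The S1pr5 window held CACCC on both strands, the Cxcr4 window held 1 CACCC, and the Cmklr1 window held 1 GAGGAA and 1 GGGTG. Of the windows not shown, that of Ccr2 held neither motif on either strand, and that of Cxcr2 held 1 TTCCTC and 1 GGGTG. Of all 32851 RefSeq windows of this length, 52.0% held CACCC on either strand, 9.57% held it on both strands, and 23.3% held GAGGAA on either strand, so these matches are common. The motif AAAGGTCA, which the Ly6C low monocyte factor Nr4a1 binds, was in 1.34% of windows and in no window of the 8 receptors for which RefSeq gave one.

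**Figure D1:**
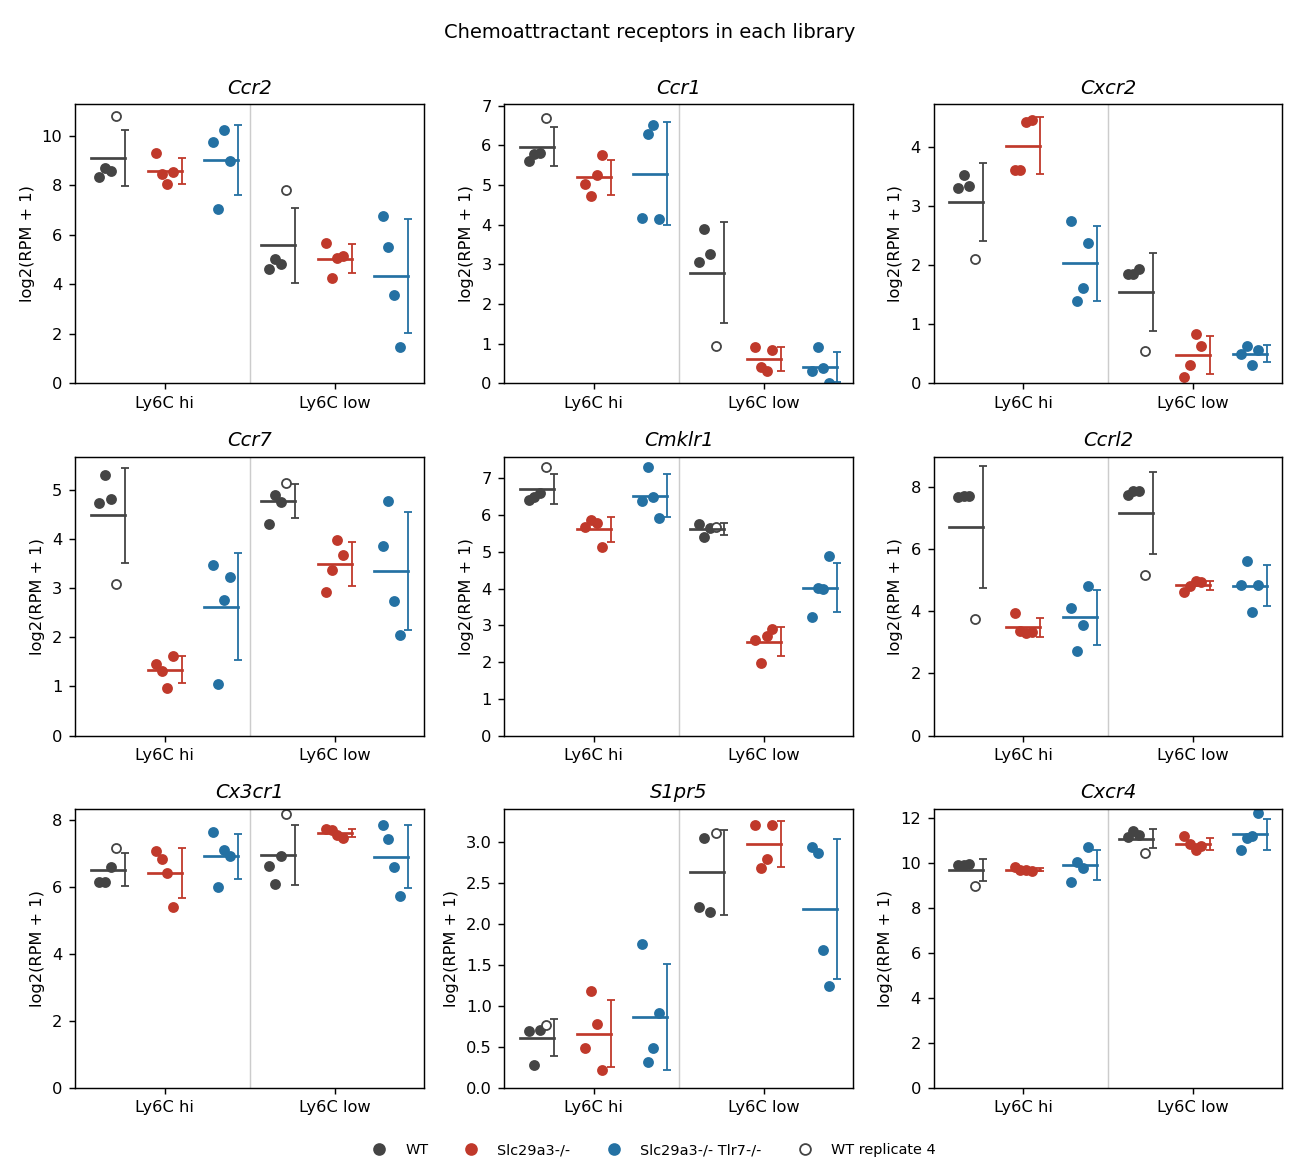
Level of each receptor, as log2(RPM + 1), in the 24 libraries. Each point is a library, bars are group means with SD on this scale (n = 4), and the open circle is WT replicate 4. Ccr2 and Ccr1 sit higher in Ly6C hi monocytes, S1pr5 and Cxcr4 higher in Ly6C low monocytes, and the 3 other WT libraries of Ccrl2 stand above the rest in both subsets.

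The first question was how the receptors differ between Ly6C hi and Ly6C low monocytes. Tests were made with limma on log2(RPM + 1), and a call needed both a fold change above 1.5 and a Benjamini-Hochberg adjusted P below 0.05 over all 11042 genes tested. All 9 receptors passed the filter on low values (1 RPM or more in 4 or more of the 24 libraries). In WT, 4 were called higher in Ly6C hi monocytes (Ccr1, Ccr2, Cxcr2, Cmklr1) and 2 lower (Cxcr4, S1pr5), where 17.5% of all genes were called higher and 8.46% lower. The subsets did not overlap for these 6 receptors, as for 33.8% of all genes. In Slc29a3-/- monocytes the same 4 were higher and 4 were lower (Ccr7, Cxcr4, Cx3cr1, S1pr5), where 16.5% of all genes were higher and 18.5% lower. None of the 9 overlapped there, as 48.7% of all genes did not. In Slc29a3-/- Tlr7-/- monocytes the 4 higher and 2 lower receptors were those of WT (18.7% and 9.64% of all genes), and 4 did not overlap (24.7% of all genes). With WT replicate 4 alone, Ccr1 was called in WT (log2 fold change 5.76, adjusted P = 0.00069, limma). The 5 others kept their direction without a call, at 2.99 for Ccr2, 1.55 for Cxcr2, 1.64 for Cmklr1, -1.50 for Cxcr4 and -2.35 for S1pr5 (adjusted P = 0.40, 0.18, 0.18, 0.20 and 0.089). S1pr5 passed the filter through its Ly6C low libraries and Ccr1 and Cxcr2 through their Ly6C hi libraries, and without the filter the 3 kept their calls in every genotype (adjusted P up to 0.019 for S1pr5, 0.00024 for Ccr1 and 0.0062 for Cxcr2, limma). Bulk libraries cannot tell fewer cells with a transcript from less transcript per cell.

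Ccr2 was higher in Ly6C hi monocytes of all 3 genotypes. It was read at 323, 420, 380 and 1783 RPM in the 4 WT Ly6C hi libraries and at 23.8, 31.9, 26.9 and 223 RPM in the WT Ly6C low libraries. Replicate 4 was the highest in both subsets, and the subsets did not overlap. The log2 fold change was 3.54 ± 0.85 (SE; adjusted P = 0.0025, limma). In Slc29a3-/- mice the levels were 264 to 636 RPM in Ly6C hi and 18.0 to 49.9 RPM in Ly6C low monocytes, a log2 fold change of 3.56 ± 0.85 (adjusted P = 0.0015, limma). In Slc29a3-/- Tlr7-/- mice Ccr2 spread widely, from 132 to 1212 RPM in Ly6C hi and from 1.76 to 107 RPM in Ly6C low monocytes, and the log2 fold change was 4.70 ± 0.85 (adjusted P = 0.00012, limma). No genotype comparison of Ccr2 was called, and the intervals were wide, such as -3.23 to 0.73 on the log2 scale for Slc29a3-/- Tlr7-/- against WT in Ly6C low monocytes.

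Ccr1 followed the same subset pattern. The WT Ly6C hi libraries were at 47.7, 53.8, 55.2 and 103 RPM and the WT Ly6C low libraries at 7.34, 13.9, 8.64 and 0.92 RPM (log2 fold change 3.18 ± 0.52, adjusted P = 3.3e-05, limma). In the mutants Ccr1 was close to the limit of detection in Ly6C low monocytes, at 0.237 to 0.875 RPM in Slc29a3-/- and at 0 to 0.874 RPM in Slc29a3-/- Tlr7-/- libraries. The log2 fold changes between the subsets were 4.58 ± 0.52 and 4.88 ± 0.52, with adjusted P of 8.2e-08 and 5.6e-08 (limma). Within Ly6C low monocytes Ccr1 missed the filter, and each mutant lay below all 4 WT libraries (P = 0.0286 for each mutant, exact two-sided permutation test, the smallest that 4 against 4 libraries allow). WT replicate 4 lay next to the mutants. The 3 other WT Ly6C low libraries, in which Ccr1 was highest, also held more of the neutrophil list (688 to 1411 RPM summed over its 9 genes, against 137 to 234 RPM in the mutants and 218 RPM in WT replicate 4). The part of these transcripts in the Ccr1 difference was not tested. In Ly6C hi monocytes Ccr1 did not pass in any genotype comparison (log2 fold change of Slc29a3-/- against WT -0.78, 95% interval -1.80 to 0.24).

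The genes around Ccr1 and Ccr2 did not all share this pattern. Ccr3, which lies between Ccr1 and Ccr2 and marks eosinophils, was not called in WT (-0.70) and was lower in Ly6C hi monocytes in both mutants (-0.96 and -1.96). Ccr9, a homing receptor of plasmacytoid dendritic cells and T cells, was higher in Ly6C hi monocytes of WT by 2.06 (2.15 with WT replicate 4 alone, adjusted P = 0.028, limma) and was at 0.01 in Slc29a3-/- mice, which was not called. Ccr1l1 was at 0.56 RPM or less in every library. Ccr1, Ccr1l1, Ccr3 and Ccr2 are similar in sequence, and whether their amplicons tell them apart was not tested.

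**Figure D2:**
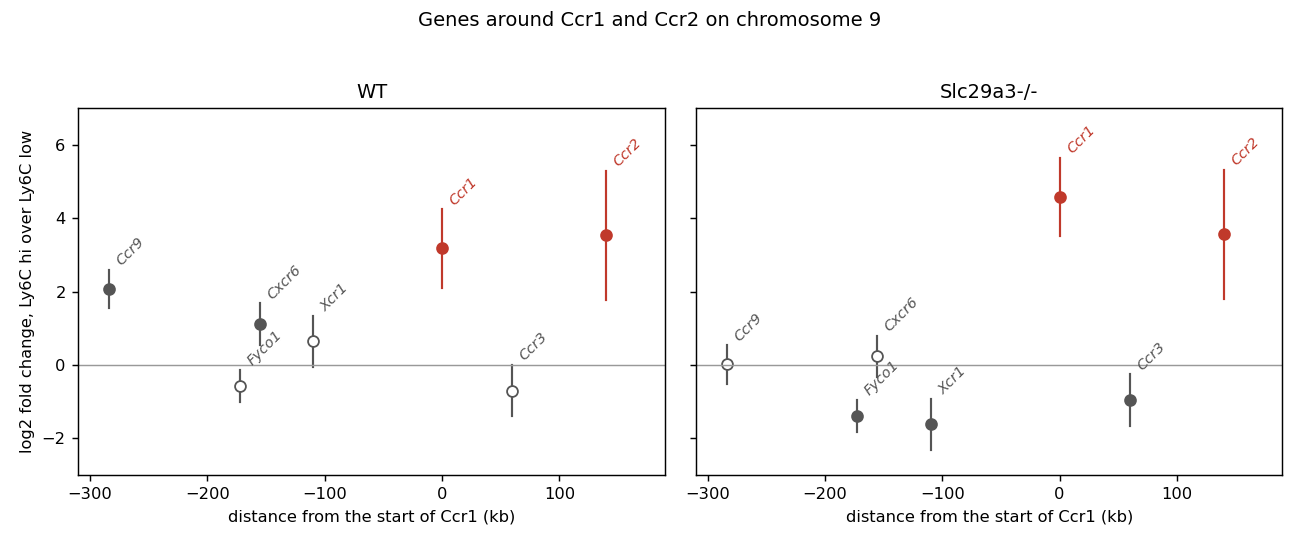
Log2 fold change of Ly6C hi over Ly6C low monocytes, with 95% interval, for genes between Ccr9 and Ccr2 against the distance from the start of Ccr1 in kb, in WT (left) and Slc29a3-/- mice (right). Filled points were called. Ccr1 and Ccr2 (red), 140 kb apart, lie above the other plotted genes in both genotypes, and Ccr3 between them lies below 0.

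S1pr5 and Cxcr4 had the reverse pattern. S1pr5 was barely read in Ly6C hi monocytes, at 0.208 to 0.702 RPM in WT, 0.159 to 1.26 RPM in Slc29a3-/- and 0.244 to 2.39 RPM in Slc29a3-/- Tlr7-/- libraries. In Ly6C low monocytes it was at 3.63, 7.27, 3.44 and 7.66 RPM in WT, at 8.27, 5.44, 5.92 and 8.26 RPM in Slc29a3-/- and at 6.70, 6.27, 2.21 and 1.36 RPM in Slc29a3-/- Tlr7-/- mice. The subsets did not overlap in WT or Slc29a3-/- mice and overlapped in Slc29a3-/- Tlr7-/- mice. The log2 fold change of Ly6C hi over Ly6C low was -2.02 ± 0.36 in WT, -2.31 ± 0.36 in Slc29a3-/- and -1.31 ± 0.36 in Slc29a3-/- Tlr7-/- mice (adjusted P = 9.4e-05, 9.6e-06 and 0.0060, limma). No genotype comparison of S1pr5 within Ly6C low monocytes was called, the nearest being Slc29a3-/- against Slc29a3-/- Tlr7-/- (log2 fold change 0.79, 95% interval -0.02 to 1.60, adjusted P = 0.26, limma).

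Cxcr4 was read at 965, 947, 998 and 495 RPM in WT Ly6C hi monocytes and at 2241, 2710, 2445 and 1402 RPM in WT Ly6C low monocytes. Replicate 4 was the lowest library in both subsets, the opposite of its place for Ccr2. The log2 fold change of Ly6C hi over Ly6C low was -1.38 ± 0.31 in WT, -1.14 ± 0.31 in Slc29a3-/- and -1.38 ± 0.31 in Slc29a3-/- Tlr7-/- mice (adjusted P = 0.0013, 0.0044 and 0.0012, limma). Cxcr4 did not pass in any of the 6 genotype comparisons, with log2 fold changes from -0.43 to 0.22. The 95% interval of Slc29a3-/- against WT in Ly6C hi monocytes was -0.58 to 0.61. The Slc29a3-/- Tlr7-/- Ly6C low libraries spread from 1519 to 4794 RPM, and the library with the most Cxcr4 had the least Ccr2 (1.76 RPM), Cx3cr1 (51.9 RPM) and S1pr5 (1.36 RPM) of its group.

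Cx3cr1, the receptor most used to mark Ly6C low monocytes, differed less between the sorted subsets. The WT libraries were at 70.5, 69.7, 96.6 and 143 RPM in Ly6C hi and at 98, 66.8, 122 and 292 RPM in Ly6C low monocytes, which overlapped (log2 fold change -0.44, 95% interval -1.35 to 0.46). In Slc29a3-/- mice Cx3cr1 was lower in Ly6C hi monocytes, at 134, 114, 84.4 and 41.0 RPM, than in Ly6C low monocytes, at 211, 207, 189 and 178 RPM (log2 fold change -1.19 ± 0.44, adjusted P = 0.033, limma). That call was lost in 6 of the 8 cases where 1 of its libraries was left out. Without Slc29a3-/- Ly6C hi replicate 4 it was -0.84 (adjusted P = 0.15), and without the filter on low values the adjusted P was 0.084. The difference of this contrast from WT was not called (-0.74, 95% interval -2.02 to 0.54). In Slc29a3-/- Tlr7-/- mice the log2 fold change was 0.02 (-0.89 to 0.92). In no genotype comparison was Cx3cr1 called, and its log2 fold change in Slc29a3-/- Ly6C low monocytes against WT was 0.65 (-0.28 to 1.59).

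Within a library, the ratio of Cx3cr1 to Ccr2 separated the subsets in all 24 libraries. It was 0.0804 to 0.483 in the 12 Ly6C hi libraries and 1.31 to 29.5 in the 12 Ly6C low libraries. The median ratio of Ly6C low monocytes was 3.10 in WT, 5.50 in Slc29a3-/- and 6.42 in Slc29a3-/- Tlr7-/- mice, with ranges that overlapped (1.31 to 4.54, 4.22 to 11.5 and 2.14 to 29.5). The ratio is a description, since the amplicons of these genes may be amplified unequally.

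**Figure D3:**
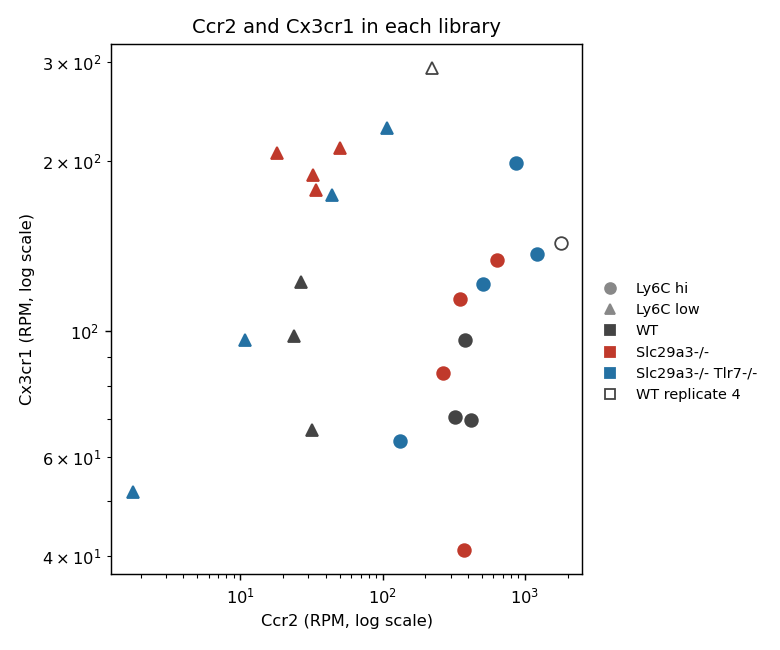
Cx3cr1 against Ccr2 (RPM, both axes logarithmic) in each of the 24 libraries, as circles for Ly6C hi and triangles for Ly6C low monocytes. The ratio separates the subsets, with 1.31 as the lowest in Ly6C low and 0.483 as the highest in Ly6C hi monocytes. Ccr2 alone separates them within each genotype but not across genotypes, and Cx3cr1 alone overlaps.

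The second question was what the loss of Slc29a3 changed and whether that depended on Tlr7. Genotypes were compared within a subset, in fits of 12 libraries. In Ly6C hi monocytes 8 of the 9 receptors were tested, S1pr5 being under the filter. Of these, 3 were called lower in Slc29a3-/- than in WT monocytes (Ccr7, Ccrl2, Cmklr1) and none higher, where 14.3% of 10561 genes were called lower. The groups did not overlap for 3 receptors (Ccr7, Cxcr2, Cmklr1), as for 33.7% of genes. None was called in Slc29a3-/- Tlr7-/- monocytes by limma, where 1.42% of genes were called, and 3 had an unadjusted P under 0.05 with a fold change over 1.5 (Ccr7, Cxcr2, Ccrl2), as 12.6% of genes had. None was without overlap, against 11.8% of genes. Slc29a3-/- monocytes differed from Slc29a3-/- Tlr7-/- monocytes in Cxcr2, which was higher (9.0% of genes), and Cmklr1, which was lower (8.22%). Neither overlapped, as was so for 21.3% of genes. In Ly6C low monocytes 7 receptors were tested, Ccr1 and Cxcr2 being under the filter. Ccrl2 and Cmklr1 were lower than in WT in Slc29a3-/- monocytes (2.53% of 10317 genes called lower) and in Slc29a3-/- Tlr7-/- monocytes (6.03%). Between the mutants, Cmklr1 alone was lower in Slc29a3-/- (0.708% called lower). Of the 7, the groups did not overlap for 3 in the first comparison, 1 in the second and 1 in the third, as for 17.7%, 12.3% and 11.9% of genes. The comparisons with WT share the WT libraries. The median log2 fold change of the tested receptors against WT was -0.65 and -0.43 in Ly6C hi and -0.54 and -1.25 in Ly6C low monocytes (Slc29a3-/- and Slc29a3-/- Tlr7-/-), beside -0.14, -0.06, 0.00 and -0.10 over all genes tested.

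**Figure D4:**
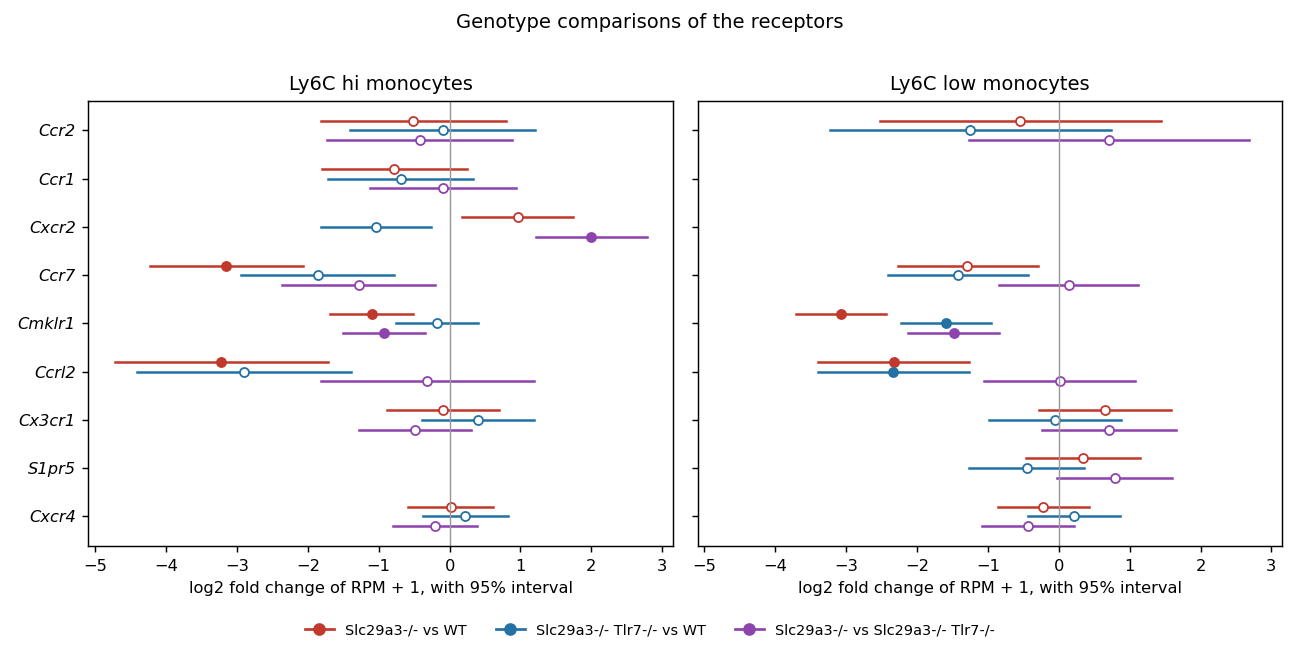
Log2 fold change of RPM + 1 with 95% interval for the 3 genotype comparisons in Ly6C hi (left) and Ly6C low (right) monocytes, filled where called. Receptors under the filter in a subset have no point. Cmklr1 in Ly6C low monocytes is at -3.07 against WT in Slc29a3-/- and at -1.59 in Slc29a3-/- Tlr7-/- mice. No point of Cxcr4, Cx3cr1 or Ccr2 was called, and their intervals include 0. Cxcr4 lies between -0.43 and 0.22. Ccr2 reaches -1.25 in Slc29a3-/- Tlr7-/- against WT Ly6C low monocytes, with an interval of -3.23 to 0.73.

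Cmklr1, the signalling receptor of chemerin, was the receptor that differed in most comparisons. In Ly6C low monocytes it was read at 52.8, 41.3, 49.7 and 50.3 RPM in WT, at 5.09, 2.96, 5.52 and 6.51 RPM in Slc29a3-/- and at 8.40, 15.1, 14.9 and 28.5 RPM in Slc29a3-/- Tlr7-/- libraries. The 3 groups did not overlap, and WT replicate 4 lay within the range of the other WT libraries. Cmklr1 was lower in Slc29a3-/- than in WT monocytes by a log2 fold change of -3.07 ± 0.30 (adjusted P = 3.7e-05, limma) and lower in Slc29a3-/- Tlr7-/- than in WT monocytes by -1.59 ± 0.30 (adjusted P = 0.011). Slc29a3-/- monocytes were below Slc29a3-/- Tlr7-/- monocytes by -1.48 ± 0.30 (adjusted P = 0.017), a call that was lost without Slc29a3-/- replicate 2 (-1.29, adjusted P = 0.072). Against WT replicate 4 alone, the values were -3.13 (adjusted P = 0.050 as rounded, called) and -1.65 (adjusted P = 0.43).

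In Ly6C hi monocytes Cmklr1 was at 84.6, 88.8, 96.3 and 159 RPM in WT, at 49.9, 57.4, 54.1 and 33.9 RPM in Slc29a3-/- and at 82.3, 159, 89.7 and 59.5 RPM in Slc29a3-/- Tlr7-/- libraries. All 4 Slc29a3-/- libraries lay below both other groups, which overlapped. The log2 fold change of Slc29a3-/- against WT was -1.10 ± 0.27 (adjusted P = 0.0088, limma), and -1.71 against WT replicate 4 alone (adjusted P = 0.066). Against Slc29a3-/- Tlr7-/- monocytes it was -0.92 ± 0.27 (adjusted P = 0.028, limma), which was lost without Slc29a3-/- Tlr7-/- replicate 2 or 3 or Slc29a3-/- replicate 4 (adjusted P = 0.064, 0.054 and 0.10), under TMM scaling (-0.76, adjusted P = 0.055) and without the filter (adjusted P = 0.075). The effect of Slc29a3 loss on Cmklr1 was larger in Ly6C low monocytes, with a difference between the subsets of 1.97 ± 0.42 on the log2 scale (95% interval 1.10 to 2.85, adjusted P = 0.0038, limma interaction), where 4.11% of 11042 genes were called in this direction. With WT replicate 4 alone this difference was 1.42 (adjusted P = 0.54).

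Across the 6 groups Cmklr1 thus ran from 107 ± 35 RPM (SD, n = 4) in WT Ly6C hi and 97.5 ± 42.7 RPM in Slc29a3-/- Tlr7-/- Ly6C hi, through 48.8 ± 10.4 RPM in Slc29a3-/- Ly6C hi and 48.5 ± 4.98 RPM in WT Ly6C low, to 16.7 ± 8.46 RPM in Slc29a3-/- Tlr7-/- Ly6C low and 5.02 ± 1.5 RPM in Slc29a3-/- Ly6C low monocytes. The first pair and the second pair of this order overlapped, and the other neighbours did not. Cmklr1 was higher in Ly6C hi than in Ly6C low monocytes in all 3 genotypes, by 1.09 ± 0.30 in WT, 3.06 ± 0.30 in Slc29a3-/- and 2.5 ± 0.30 in Slc29a3-/- Tlr7-/- mice (adjusted P = 0.0071, 7.4e-09 and 3.8e-07, limma). Cmklr1 is also expressed by plasmacytoid dendritic cells. All 5 tested genes of the plasmacytoid dendritic cell list were lower in Slc29a3-/- Ly6C hi monocytes (14.1 to 24.7 RPM summed over its 6 genes, against 60.4 to 121 RPM in WT), while in Ly6C low monocytes the sums were 11.6 to 28.4 RPM in Slc29a3-/- and 21.9 to 38 RPM in WT. The conventional dendritic cell list moved in the same direction. All 6 of its genes were lower in Slc29a3-/- than in WT Ly6C hi monocytes (23.7 to 62.1 RPM summed against 111 to 126 RPM), and 5 of 6 were lower than in Slc29a3-/- Tlr7-/- mice (109 to 151 RPM). Among Ly6C low monocytes 3 of 6 were lower in Slc29a3-/- than in WT (15.6 to 30.1 RPM against 38.8 to 91.7 RPM) and 4 of 6 lower than in Slc29a3-/- Tlr7-/- mice (47.6 to 80.3 RPM), and none was called in Slc29a3-/- Tlr7-/- mice against WT. The part of either cell type in the Cmklr1 differences was not tested. Rarres2, which encodes chemerin, was at 0.162 RPM or less in all libraries, and Gpr1, the other signalling chemerin receptor, at 0.

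Ccrl2, which presents chemerin, was high in 3 of the 4 WT libraries of each subset. It was at 201, 204, 206 and 12.5 RPM in WT Ly6C hi and at 209, 229, 230 and 34.9 RPM in WT Ly6C low monocytes, with replicate 4 the low one both times. The Slc29a3-/- libraries were at 14.3, 9.33, 8.72 and 9.13 RPM in Ly6C hi and at 23.5, 27, 29.9 and 29.3 RPM in Ly6C low monocytes. The Slc29a3-/- Tlr7-/- libraries were at 16.1, 5.61, 10.8 and 26.9 RPM in Ly6C hi and at 27.3, 47.4, 14.8 and 27.4 RPM in Ly6C low monocytes. WT replicate 4 lay among or close to the mutants, and the 6 other WT libraries, which were those with high immediate early genes, lay above all 18 others.

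Over all libraries, Ccrl2 was lower in Slc29a3-/- than in WT monocytes by -3.22 ± 0.71 among Ly6C hi and by -2.32 ± 0.50 among Ly6C low cells on the log2 scale (adjusted P = 0.0045 and 0.016, limma). In Slc29a3-/- Tlr7-/- monocytes the log2 fold changes were -2.90 ± 0.71 (adjusted P = 0.056, not called) and -2.34 ± 0.50 (adjusted P = 0.018). Against WT replicate 4 alone, the Slc29a3-/- values were -0.27 and -0.34 (adjusted P = 0.86 and 0.91) and the Ly6C low value of Slc29a3-/- Tlr7-/- mice was -0.36 (adjusted P = 0.74), none of them called. Slc29a3-/- and Slc29a3-/- Tlr7-/- monocytes, which hold no library of barcodes 11 to 16, differed in Ccrl2 by -0.32 (95% interval -1.82 to 1.19) in Ly6C hi and 0.02 (-1.05 to 1.08) in Ly6C low monocytes. The call of Slc29a3-/- against WT in Ly6C low monocytes was also lost without the filter (adjusted P = 0.050) and without any of 5 libraries (adjusted P of 0.052 to 0.072). That of Slc29a3-/- Tlr7-/- against WT was lost without Slc29a3-/- Tlr7-/- replicate 3 or WT replicate 1, 2 or 3 (adjusted P of 0.052 to 0.070). The part of the immediate early genes in the Ccrl2 difference was not tested.

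Ccr7, the lymphoid homing receptor, was at 25.7, 38.4, 27.4 and 7.49 RPM in WT Ly6C hi monocytes. All 4 Slc29a3-/- libraries were lower, at 1.75, 1.5, 0.951 and 2.06 RPM, and the Slc29a3-/- Tlr7-/- libraries were at 10.1, 1.06, 5.78 and 8.34 RPM, which overlapped both other groups. The log2 fold change of Slc29a3-/- against WT was -3.15 ± 0.50 (adjusted P = 0.00074, limma), and -1.74 against WT replicate 4 alone (adjusted P = 0.26). Slc29a3-/- Tlr7-/- monocytes were at -1.86 ± 0.50 against WT (adjusted P = 0.068), with a call when WT replicate 4 was left out (-2.33, adjusted P = 0.0057). Between the mutants, Slc29a3-/- was at -1.28 ± 0.50 against Slc29a3-/- Tlr7-/- Ly6C hi monocytes, which was not called (adjusted P = 0.084, limma). That difference was called without Slc29a3-/- Tlr7-/- replicate 2 (-1.81, adjusted P = 0.0079). Leaving out each library in turn gave -1.81 to -1.0 (adjusted P of 0.0079 to 0.2). In Ly6C low monocytes WT was at 18.9, 28.7, 26 and 34.3 RPM, Slc29a3-/- at 6.60, 9.36, 14.8 and 11.8 RPM and Slc29a3-/- Tlr7-/- at 13.5, 26.3, 5.68 and 3.12 RPM. Slc29a3-/- and WT did not overlap there, with a log2 fold change of -1.29 ± 0.46 that missed the threshold (adjusted P = 0.13, limma).

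In Slc29a3-/- mice Ccr7 was lower in Ly6C hi than in Ly6C low monocytes by -2.15 ± 0.52 (adjusted P = 0.0016, limma), while in WT the difference was -0.29 (95% interval -1.36 to 0.78). The difference between these contrasts, -1.86 ± 0.73, did not pass over all libraries (adjusted P = 0.12) and did without WT Ly6C hi replicate 4 (-2.33, adjusted P = 0.036, limma). Ccr7 marks mature dendritic cells. All 6 genes of the conventional dendritic cell list were lower in Slc29a3-/- than in WT Ly6C hi monocytes, and their sum was 23.7 to 62.1 RPM against 111 to 126 RPM. In Slc29a3-/- Tlr7-/- Ly6C hi monocytes the sum was 109 to 151 RPM, while Ccr7 was at 1.06 to 10.1 RPM. All 4 tested T cell genes and all 5 NK cell genes were lower in Slc29a3-/- than in WT Ly6C hi monocytes as well (T cell list 1.90 to 7.83 RPM against 13 to 93.4 RPM). The part of other cells in the Ccr7 difference was not tested.

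Cxcr2 was highest in Slc29a3-/- Ly6C hi monocytes, at 11.3, 11.2, 20.5 and 20.9 RPM, against 8.95, 10.5, 9.17 and 3.28 RPM in WT and 5.70, 1.62, 2.06 and 4.17 RPM in Slc29a3-/- Tlr7-/- libraries. No Slc29a3-/- library overlapped either other group. Cxcr2 was higher in Slc29a3-/- than in Slc29a3-/- Tlr7-/- monocytes by 2.0 ± 0.37 on the log2 scale (adjusted P = 0.0017, limma). Against WT the difference of 0.96 ± 0.37 missed the threshold (adjusted P = 0.064) and passed under TMM and RLE scaling (1.12 and 1.07, adjusted P = 0.037 and 0.045). These scalings moved the median of all genes from -0.14 to 0.02 and -0.03. In Ly6C low monocytes Cxcr2 was under the filter, at 2.59, 2.61, 2.81 and 0.46 RPM in WT and at 0.08 to 0.789 RPM in all 8 mutant libraries (P = 0.0857 for each mutant against WT, exact two-sided permutation test).

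Because Cxcr2 was near the limit of detection in mutant Ly6C low monocytes, the size of its change there is uncertain. The fitted Slc29a3 effect on Cxcr2 differed between the subsets by 2.03 ± 0.49 against WT (adjusted P = 0.010, limma interaction) and by 2.02 ± 0.49 against Slc29a3-/- Tlr7-/- (adjusted P = 0.012), where 4.11% and 4.53% of genes were called in this direction. With WT replicate 4 alone the first was 2.0 (adjusted P = 0.24), without the filter the adjusted P were 0.033 and 0.036, and with a pseudocount of 0.1 the second was 2.52 (adjusted P = 0.055). The Slc29a3-/- Ly6C hi libraries, which were sorted as Ly6G-, also held the most of the neutrophil list. Its 9 genes summed to 42475 to 81609 RPM, against 13932 to 21658 RPM in WT and 6360 to 21763 RPM in Slc29a3-/- Tlr7-/- libraries, and Ly6g, Ngp, Ltf, Camp and Lcn2 were called higher against WT while Mmp8 and Retnlg were called lower. Ngp, the most abundant of the list, was at 29135 to 57331 RPM in Slc29a3-/- and at 9604 to 16065 RPM in WT. The granulocyte-monocyte progenitor list had 6 of its 8 genes higher and summed to 918 to 2992 RPM, against 369 to 476 RPM in WT. The part of neutrophils and their precursors in the Cxcr2 difference was not tested.

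**Figure D5:**
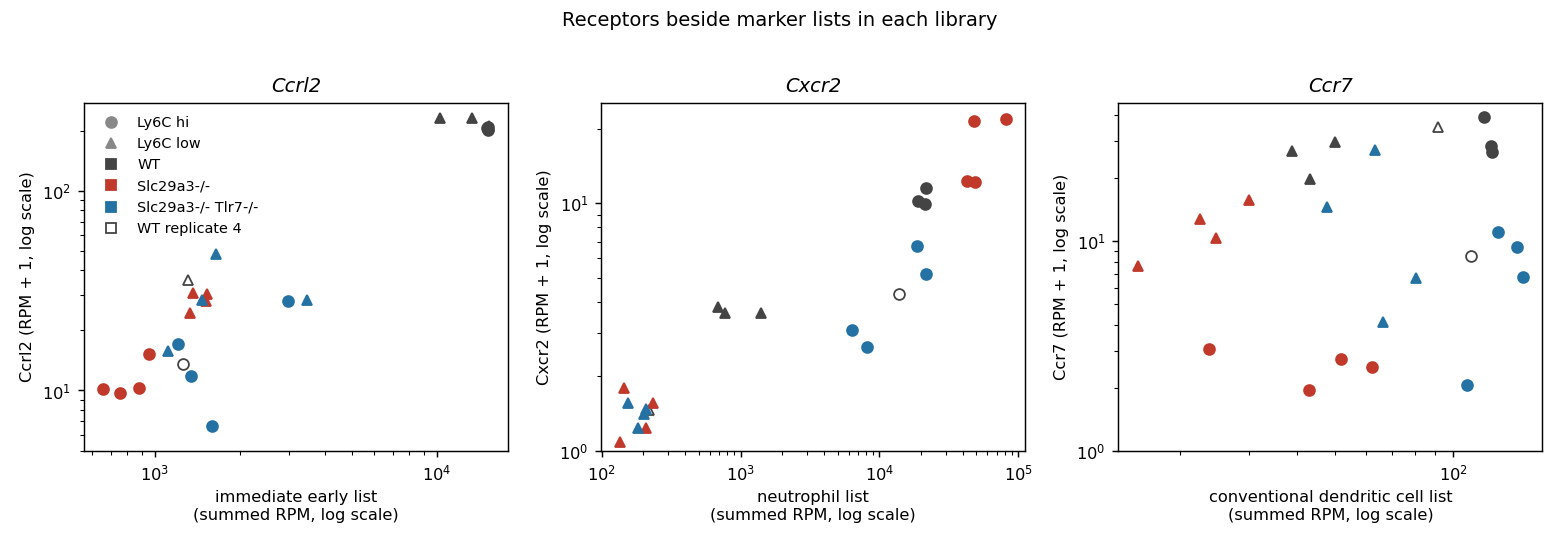
Ccrl2, Cxcr2 and Ccr7 (RPM + 1) against the summed RPM of the immediate early, neutrophil and conventional dendritic cell lists, all axes logarithmic, with 1 point per library (circles, Ly6C hi; triangles, Ly6C low; open symbols, WT replicate 4). The 6 WT libraries of replicates 1 to 3 sit apart in the Ccrl2 panel at 10229 RPM and above, and the 4 Slc29a3-/- Ly6C hi libraries hold the highest values of both axes in the Cxcr2 panel.

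For Slc29a3-/- Tlr7-/- against WT, no receptor was called for a difference of the effect between the subsets by limma (none of 9 called, where 0.0634% of all genes were). At an unadjusted P under 0.05, Ccr1 and Cmklr1 passed, as 7.80% of all genes did.

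The other chemoattractant receptors, a list of 30 of which 29 were in the table, were also unevenly affected. In Slc29a3-/- Ly6C hi monocytes 9 of the 20 tested were lower than in WT and 5 were higher (14.3% and 8.15% of all genes), with a median log2 fold change of -0.30 beside -0.14 over all genes. The largest falls were in S1pr1 (-3.0), which lymphocytes use to leave lymphoid organs, Ccr3 (-2.66) and Xcr1 (-2.51), a receptor of cross-presenting dendritic cells. The rises were in Fpr1 (0.97), Ltb4r1 (0.96), Fpr2 (0.93), C5ar1 (0.66) and S1pr4 (0.61), of which Fpr1 and Fpr2 sense formylated peptides, Ltb4r1 leukotriene B4 and C5ar1 complement C5a. Of these 14 calls, 1 was kept with WT replicate 4 alone, that of Ccr9 (-2.34, adjusted P = 0.033, limma), and all 14 kept their direction. S1pr1 was then at -1.67, Ccr3 at -2.68 and Xcr1 at -1.63 (adjusted P = 0.36, 0.054 and 0.18), and the 5 higher receptors were at 0.81, 0.75, 0.67, 0.54 and 1.01 in the order above (adjusted P of 0.16 to 0.60). Against Slc29a3-/- Tlr7-/- Ly6C hi monocytes, a comparison without WT libraries, 4 of the 20 were higher in Slc29a3-/- and 4 were lower (9.0% and 8.22% of all genes). S1pr4, C5ar1, Fpr2 and Ltb4r1 were higher, and Ccr9, Cxcr3, Xcr1 and Gpr183 were lower. All of them had the direction of their call against WT. In Slc29a3-/- Ly6C low monocytes Fpr1 rose by 1.75 and C3ar1 by 1.26 against WT. Ccr3 fell by 2.40, Gpr183 by 1.42 and C5ar1 by 0.92 on the log2 scale. None of these 5 was called with WT replicate 4 alone, where Fpr1 was at 0.96, C3ar1 at 1.92, Ccr3 at -2.59, Gpr183 at -1.53 and C5ar1 at -1.35 (adjusted P of 0.099 to 0.35, limma). Fpr1 was read there at 99.1 to 142 RPM, against 26.6 to 59.5 RPM in WT and 18.6 to 31.6 RPM in Slc29a3-/- Tlr7-/- libraries. It was higher than in Slc29a3-/- Tlr7-/- monocytes by 2.21 (adjusted P = 0.00038, limma). Between the mutants C3ar1 was also called higher and Ccr3 lower in Slc29a3-/- Ly6C low monocytes, while Gpr183 and C5ar1 were not called. C5ar1 was thus called higher in Ly6C hi and lower in Ly6C low monocytes of Slc29a3-/- mice against all WT libraries. The difference between the subsets was 1.58 (adjusted P = 0.00073, limma interaction), and 1.89 with WT replicate 4 alone, which was not called (adjusted P = 0.077).

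Of the 21 listed ligands, 19 were in the table and 8 were tested in Ly6C hi monocytes. In Slc29a3-/- Ly6C hi monocytes 6 were lower than in WT and none was higher (14.3% and 8.15% of all genes), with the largest log2 fold changes in Ccl3 (-5.90) and Ccl2 (-4.98), ligands of Ccr1 and Ccr2. Ccl3 was at 947 to 1004 RPM in WT replicates 1 to 3, at 6.32 RPM in WT replicate 4 and at 2.14 to 5.49 RPM in Slc29a3-/- libraries, and Ccl2 was at 224 to 242 RPM, 2.57 RPM and 0.635 to 3.18 RPM. None of the 6 was called with WT replicate 4 alone, and Ccl3 was at -0.60 and Ccl2 at -0.46 (adjusted P = 0.78 and 0.71, limma). In Slc29a3-/- Tlr7-/- Ly6C hi monocytes Ccl2 alone was called (-4.52, and 0.00 with WT replicate 4 alone), and between the mutants Ccl6 (-1.05) and Ccl9 (-1.02) were lower in Slc29a3-/-. In Ly6C low monocytes of Slc29a3-/- mice, Cxcl2 (-4.09) and Ccl5 (-1.79) were lower than in WT and Ccl9 (0.82) was higher. With WT replicate 4 alone they were at -0.24, -1.43 and 0.70, none of them called (adjusted P = 0.95, 0.32 and 0.43, limma). Between the mutants, Ccl5 was called lower in Slc29a3-/- Ly6C low monocytes, while Cxcl2 and Ccl9 were not called. Ccl5 was at 18.2 to 38.6 RPM in Slc29a3-/- and at 51.9 to 101.6 RPM in Slc29a3-/- Tlr7-/- Ly6C low libraries. The part of the immediate early response of WT replicates 1 to 3 in the ligand differences was not tested. Of the 15 genes that switch such receptors off (G protein-coupled receptor kinases, arrestins and RGS proteins), 4 of 14 tested were lower in Slc29a3-/- than in WT Ly6C hi monocytes and none was higher (14.3% and 8.15% of all genes), with the largest log2 fold changes in Rgs1 (-5.97), Rgs2 (-1.19) and Rgs10 (-0.95). Rgs1 was at 275 to 298 RPM in WT replicates 1 to 3, at 2.81 RPM in WT replicate 4 and at 0.316 to 1.11 RPM in Slc29a3-/- libraries. None of the 4 was called with WT replicate 4 alone, and Rgs1 was at -1.30, Rgs2 at -0.60 and Rgs10 at -0.91 (adjusted P = 0.39, 0.37 and 0.091, limma). Between the mutants, 1 of the 14 tested was higher in Slc29a3-/- than in Slc29a3-/- Tlr7-/- Ly6C hi monocytes and 3 were lower (9.0% and 8.22% of all genes). The higher gene was Arrb2, which encodes beta-arrestin 2 (1.12, adjusted P = 0.0035, limma), and the lower genes were Adrbk2, Rgs2 and Rgs10. In Slc29a3-/- Ly6C low monocytes 1 of 13 tested was lower than in WT (Rgs18, -1.19, and -1.52 with WT replicate 4 alone, adjusted P = 0.32, limma), where 2.53% of all genes were.

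For each receptor, 2 or 3 of the 3 genes with the most similar levels over the 24 libraries are given, among 7492 genes with a mean of at least 10 RPM (Pearson's r of log2(RPM + 1)). The libraries share 2 subsets and 3 genotypes, so r mainly describes how a gene sorts with the groups. Cxcr2 was most like Tubb5 (0.97), Ly6g (0.97), the neutrophil surface marker, and Plk4 (0.96), a centriole duplication kinase. Ccr1 was most like Mmp8 (0.97) and Padi4 (0.96). Ccrl2 was most like Pim1, Trib1 and Ifrd1 (all 0.96), and Ccr7 like D1Ertd622e (0.91), Rasgef1b (0.87) and Nxf1 (0.87). Ccr2 was most like Txndc16 (0.95), Arsi (0.95) and Slfn1 (0.94), Cmklr1 like Adam19 (0.94), Clec7a (0.93) and Slpi (0.92), and S1pr5 like Dgkh (0.95), Slamf9 (0.94) and 5031414D18Rik (0.94). Cxcr4 (Jag1 0.89, Tiam2 0.88, Dedd2 0.88) and Cx3cr1 (Ubac2 and Tlr13, both 0.89) had no gene above 0.90.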

How the data were processed

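RNA-seq libraries of Ly6C hi and Ly6C low monocytes (24 libraries, 6 groups of 4) were described by 1 table that the authors deposited, in which reads of 23930 amplicons are given per 1000000 reads of the library (RPM). Per the labels and the study's methods, libraries were made with the Ion AmpliSeq Transcriptome Mouse kit and read on mm10. The methods name Cutadapt, STAR, HTSeq and DESeq2, and which step wrote the table is not given in the sources used here. Values of 0.0001, which stand for 0 reads, were replaced by 0, and 27 gene names that had become dates were repaired from the amplicon names.

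RPM values were transformed to log2(RPM + 1) and fitted with limma 3.58.1 in R 4.3.3 (eBayes with trend), where 4 or more libraries of the fit reached 1 RPM. Genotypes were compared within a subset (12 libraries), and subsets and interactions in 1 fit of 24 libraries, because the table holds RPM in place of counts. Calls required a fold change above 1.5 with a Benjamini-Hochberg adjusted P below 0.05. Fold changes are on the RPM + 1 scale, which understates changes of low genes. Receptors under the filter were compared with exact permutation tests (smallest P 0.029). The fit was tested on simulated data that held no split within WT, so that test cannot speak for the calls against WT. Same-numbered Ly6C hi and Ly6C low libraries deviated together in WT (correlations of 0.26 to 0.62). However, WT replicates 2 and 3 did not match their own number best, and replicates 1 to 3 stood apart from replicate 4 in both subsets. The correlations cannot tell pairing from that split, and the main tests did not pair libraries. Correlations were mixed in sign in Slc29a3-/- (-0.08 to 0.26) and Slc29a3-/- Tlr7-/- mice (-0.46 to 0.34), and same-numbered libraries did not deviate together between genotypes. Alternatives were TMM and RLE scaling, a pseudocount of 0.1, no filter, an unadjusted threshold, the replicate number as a block, WT replicate 4 alone for WT (added for the genes of other lists after the data were seen), and each library left out.

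Sequencing depth was 12311128 to 14572061 reads per library, and the floor of 3 reads covers counting error only, since PCR copies of a molecule cannot be recognised without molecular identifiers. Library replicates may come from separate mice or not, so P values measure the spread between libraries, which may be technical. Receptors, gene lists and tests were chosen with earlier results of these data known. Named genes were the 9 receptors, up to 3 called genes per list and direction by the size of the change, the 3 genes most like each receptor, and the most abundant gene of a marker list. Other genes were named after their values were seen. Some genes that these rules name are not reported here. Figures were drawn with matplotlib 3.10.9 in Python 3.11.15.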

Additional observations from a re-analysis of the deposited data

Results flagged for a closer look

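Within groups of 4 libraries, 54 receptor and group combinations were searched for a library far from the others (a gap over Dixon's 95% critical value, which chance exceeds in about 1 group in 20), and 9 had one. Of these, 7 were WT replicate 4. Ccr2 was high in it, at 1783 RPM in Ly6C hi and 223 RPM in Ly6C low monocytes. Cxcr2 was low in it, at 3.28 RPM and 0.46 RPM, as was Ccrl2, at 12.5 RPM and 34.9 RPM. Cxcr4 was low in its Ly6C hi library, at 495 RPM. The others were S1pr5 in WT Ly6C hi replicate 2, at 0.208 RPM, which is at the floor of 3 reads, and Ccrl2 in Slc29a3-/- Ly6C hi replicate 1, at 14.3 RPM.

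Genotype effects differed between Ly6C hi and Ly6C low monocytes in 3 interaction tests (limma). For Slc29a3-/- against WT, the difference was 2.03 for Cxcr2 and 1.97 for Cmklr1 on the log2 scale. For Slc29a3-/- against Slc29a3-/- Tlr7-/-, it was 2.02 for Cxcr2.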

How the results depend on the processing

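The number of receptors called changed with the setting as follows. Under TMM scaling and without a filter, Slc29a3-/- against Slc29a3-/- Tlr7-/- Ly6C hi monocytes gave 1 call in place of 2. Without a filter Slc29a3-/- against WT Ly6C low monocytes gave 1 in place of 2. With a pseudocount of 0.1 the interaction of Slc29a3-/- against Slc29a3-/- Tlr7-/- gave 0 in place of 1. The causes of these changes were not tested. At an unadjusted P under 0.05, Slc29a3-/- Tlr7-/- against WT gave 3 in place of 0 in Ly6C hi monocytes and 2 in place of 0 in the interaction. With WT replicate 4 alone for WT, a lone library taken to vary as the other groups do, Slc29a3-/- against WT gave 0 (Ly6C hi) and 1 (Ly6C low), Slc29a3-/- Tlr7-/- against WT gave 0 in Ly6C low monocytes, Ly6C hi against Ly6C low in WT gave 1, and the interaction of Slc29a3-/- against WT gave 0. Leaving out each library in turn gave 3 to 3 calls for Slc29a3-/- against WT, 0 to 3 for Slc29a3-/- Tlr7-/- against WT and 1 to 2 for Slc29a3-/- against Slc29a3-/- Tlr7-/- in Ly6C hi monocytes, and 1 to 2, 1 to 3 and 0 to 1 in Ly6C low monocytes. It gave 6 to 6, 7 to 8 and 6 to 6 for the subsets in WT, Slc29a3-/- and Slc29a3-/- Tlr7-/- mice, and 2 to 3, 0 to 0 and 1 to 1 for the interactions. Without WT replicate 4, Slc29a3-/- Tlr7-/- against WT Ly6C hi monocytes gave the 3 calls.

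With the replicate number as a block, the counts of calls moved by less than 1.5 times. No call between the WT subsets was lost (adjusted P = 0.016 or less for the 6 receptors, limma). Whether the number pairs libraries is not known in any genotype. In the mutants Ccrl2 was then called lower in Ly6C hi than in Ly6C low monocytes of Slc29a3-/- (-1.34, adjusted P = 0.0068, limma) and Slc29a3-/- Tlr7-/- mice (-1.01, adjusted P = 0.040). No direction of a called value of the 9 receptors turned under these alternatives. Among the genes of the other lists, directions turned with WT replicate 4 alone for Cxcl2 and Cxcr5. Cxcl2 went from -3.54 to 0.31 in Slc29a3-/- Tlr7-/- against WT Ly6C low monocytes. Cxcr5 went from 1.14 to -0.19 between the WT subsets. Ccl2 went from -4.52 to 0.00 in Slc29a3-/- Tlr7-/- against WT Ly6C hi monocytes. Count-based tests planned as alternatives were not run. The values lie on an even step of 1 read, but 0 is written as 0.0001, and reads recovered from the step were not accepted as counts. Depth limits S1pr5 in Ly6C hi and Ccr1 and Cxcr2 in Ly6C low monocytes, which lay near the floor.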
